A study of Mus musculus with 6 samples.

Results

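Hepatocytes take up bile acids, bilirubin conjugates, hormone conjugates and drugs from blood with one set of membrane carriers and push their products into bile or back into blood with another. The 9 genes described here belong to both sets. They were chosen by name from the 55491 genes of a liver RNA-seq table. The 6 uptake genes were Slco1a1, Slco1a4, Slco1b2 and Slco2b1, which encode organic anion transporting polypeptides (OATPs), and Slc22a7 and Slc22a30, which belong to the organic anion transporter branch of the SLC22 family. The 3 efflux genes were Abcc2, Abcc3 and Abcc4, which encode the multidrug resistance-associated proteins MRP2, MRP3 and MRP4. All 9 carry organic anions or belong to families that do, and none is an organic cation transporter.

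RNA was measured in whole livers of 3 Chrna2fl/fl mice (controls a, b and c) and 3 Chrna2fl/fl;AlbCre mice (mutants a, b and c), and sets of 3 values follow the order a, b, c. Chrna2 encodes the alpha 2 subunit of the nicotinic acetylcholine receptor, and the comparison asks what its loss from hepatocytes changes in a diet and toxin model of steatohepatitis. All mice carried the floxed Chrna2 allele and all ate a high-fat diet (HFD, 60% fat by calories) over 4 weeks and were given carbon tetrachloride (CCl4), 0.5 μl per g of mouse 2 times each week, during the later part of the feeding. The mice were 7 to 10 weeks old when feeding began. AlbCre is a Cre transgene under the albumin promoter, so deletion is directed to hepatocytes and cells outside this lineage keep the gene. The controls carried no Cre, and livers without HFD plus CCl4 were not analysed here, so the comparison speaks only of challenged livers. The mice's sex and strain background are not given in the labels for these samples. The study counts its samples as biological replicates.

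OATPs work without sodium at the sinusoidal membrane, the face of the hepatocyte toward blood, beside the sodium-dependent bile acid carrier NTCP (Slc10a1). MRP2 is an ATP-driven pump of the canalicular membrane that moves glucuronide and glutathione conjugates into bile. MRP3 and MRP4 sit on the basolateral side and return conjugates and bile acids to blood, a route known to gain weight in cholestasis, when hepatocytes commonly hold fewer uptake carriers.

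Promoter sequence is shown for the uptake gene with the largest difference between genotypes and for the canalicular and the basolateral pump that differed in opposite directions, because the stretches shown are unlike in base composition. Each stretch runs from 250 bases before to 50 bases after the start of the RefSeq gene model (assembly GRCm38.p6), 5′ to 3′ along the gene. Capitals mark matches, on either strand, to the HNF4A core CAAAGT, the dioxin response element core GCGTG, the antioxidant response element core TGACNNNGC, the nuclear receptor half-site AGGTCA and the STAT palindrome TTCNNNGAA.
Slco1b2 (chr6:141629268-141629567, plus strand): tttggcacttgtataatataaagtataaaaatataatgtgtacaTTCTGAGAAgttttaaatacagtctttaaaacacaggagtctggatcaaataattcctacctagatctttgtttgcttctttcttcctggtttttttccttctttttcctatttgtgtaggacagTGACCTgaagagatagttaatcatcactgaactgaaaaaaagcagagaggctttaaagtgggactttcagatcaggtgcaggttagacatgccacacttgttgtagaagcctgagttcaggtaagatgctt
Abcc2 (chr19:43782058-43782357, plus strand): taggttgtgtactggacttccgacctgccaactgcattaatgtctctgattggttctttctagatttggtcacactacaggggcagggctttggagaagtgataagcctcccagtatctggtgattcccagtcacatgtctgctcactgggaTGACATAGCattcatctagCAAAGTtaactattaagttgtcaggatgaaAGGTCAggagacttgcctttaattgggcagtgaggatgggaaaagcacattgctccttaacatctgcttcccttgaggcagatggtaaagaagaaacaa
Abcc4 (chr14:118706170-118706469, minus strand): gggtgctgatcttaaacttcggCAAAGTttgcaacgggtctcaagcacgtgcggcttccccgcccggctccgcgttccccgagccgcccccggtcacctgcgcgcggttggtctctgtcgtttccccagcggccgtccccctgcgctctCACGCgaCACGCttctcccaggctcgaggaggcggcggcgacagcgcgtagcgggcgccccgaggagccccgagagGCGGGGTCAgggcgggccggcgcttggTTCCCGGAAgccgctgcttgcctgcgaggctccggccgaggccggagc

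The Slco1b2 stretch was 35.3% G or C, the Abcc2 stretch 45.0% and the Abcc4 stretch shown 72.7%, against a median of 52.7% over all promoters of this length. The other listed Abcc4 promoter, not shown, was 47.3% G or C. CAAAGT was found in 14.4% of 32851 promoters and, among the 10 promoters listed for 7 of the 9 genes, in those of Abcc2, Abcc4 and Slc22a30. AGGTCA occurred in 16.3% of all promoters and in those of Slco1b2, Slco1a1 and Abcc2. TGACNNNGC, the letters bound by NRF2 with its partners, occurred in 12.4% of all promoters and was found in Abcc2, at base -98, and in both listed Abcc4 promoters. GCGTG was in 32.4% of all promoters and in this group only in Abcc4, and TTCNNNGAA was in 8.30% and in Abcc4, Slco1b2 and Slco2b1. No stretch of Abcc3 or Slc22a7 was shown. A match is a run of letters and was not tested as a binding site.

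The deposited values were FPKM, fragment counts scaled by exon length and by library size. The control libraries held 17.2 to 17.9 M fragments and the mutant libraries 9.15 M each, as judged from the spacing of the lowest values, so depth and genotype cannot be told apart. Chrna2 itself was listed at 1.24, 1.20 and 2.64 FPKM in the controls and at 0.36, 0.03 and 0.32 FPKM in the mutants, without overlap. Xist was at or below 0.20 FPKM and the Y-linked Ddx3y at 12.8 to 18.3 FPKM in the 6 livers, so each liver had the male pattern of these transcripts and none stood apart. The 10 hepatocyte markers looked up were abundant in all livers, with sums of 61607 to 89900 FPKM in control and 66558 to 81712 FPKM in mutant livers.

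Of 13943 genes whose mean reached 0.5 FPKM, 0 higher (0%) and 0 lower (0%) passed an adjusted p of 0.05 in limma, and none of the 9 transporters did. Without adjustment, 1842 genes (13.2%) were higher and 421 (3.02%) lower in mutant livers at a limma p under 0.05, a set in which 0 transporters were higher and 2, Slco1b2 and Slco2b1, were lower. The mutants lay entirely above the controls for 2606 genes (18.7%) and entirely below them for 605 (4.34%), and of the transporters 0 lay above and the same 2 below. Levels of most genes leaned toward the mutant livers, since the median log2 fold change over all genes tested was 0.19 and 70.3% were above 0. All 6 uptake genes and Abcc2 lay below 0, although the sign of Slco1a1 and of Slco1a4 changed when 1 liver was left out, and Abcc3 and Abcc4 lay above that median.

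**Figure D1:**
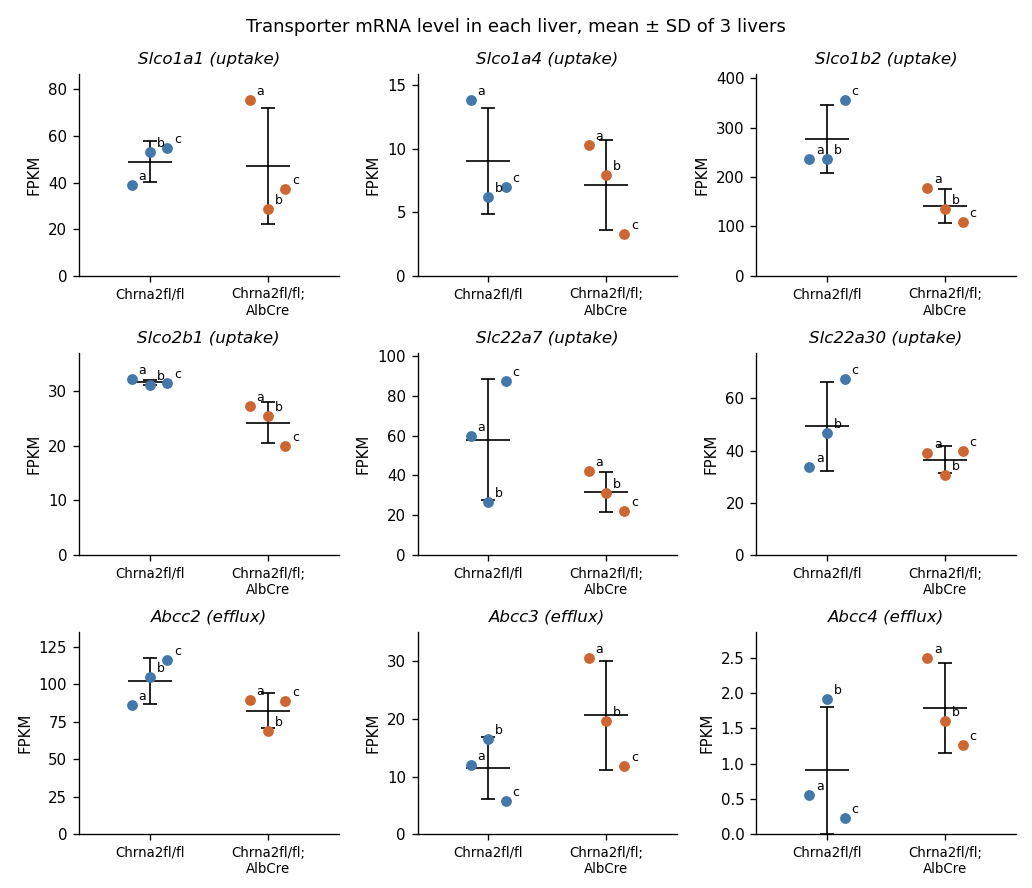
FPKM of each of the 9 transporters in each liver (points, lettered), with the mean and SD of the 3 livers of each genotype (horizontal line and bars) and the y axis from 0. Slco1b2 (109 to 178 FPKM in mutant and 236 to 356 in control livers) and Slco2b1 (20.0 to 27.2 and 31.2 to 32.1 FPKM) were the genes whose livers did not overlap.

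Slco1b2 (ENSMUSG00000030236, chr6:141629518-141686646, plus strand, GRCm38) encodes OATP1B2, the mouse counterpart of the human hepatic carriers OATP1B1 and OATP1B3. It was the most abundant of the 9 transporters in both genotypes. It was listed at 236, 237 and 356 FPKM in the controls, and at 178, 135 and 109 FPKM in the mutants. The lowest control liver was above the highest mutant liver, and control c was the highest of all. The mean was 276 ± 68.8 FPKM (SD, n = 3) in control and 141 ± 34.9 FPKM (SD, n = 3) in mutant livers, or 51.0% of control. The log2 fold change was -0.97 with a standard error of 0.23 and a 95% interval of -1.52 to -0.42 (limma adjusted p = 0.255), and the exact permutation test gave p = 0.1, the smallest that 3 livers against 3 allow. Leaving out 1 liver at a time kept the fold change between -1.16 and -0.78.

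Slco2b1 (ENSMUSG00000030737, chr7:99657804-99711340, minus strand) encodes OATP2B1, a carrier of steroid sulfates and statins that is also made in gut and vessels. It stood at 32.1, 31.2 and 31.4 FPKM in the controls, the narrowest spread of the group, and at 27.2, 25.4 and 20.0 FPKM in the mutants. The genotypes did not overlap and mutant c was the lowest. The mean level in mutant livers was 76.7% of control, with a log2 fold change of -0.39 ± 0.15 (SE, limma adjusted p = 0.285, exact permutation p = 0.1). Its unadjusted limma p stayed under 0.05 without mutant a and lay between 0.0504 and 0.0852 without any other single liver. The annotation places 2 other genes on the opposite strand within it.

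Slco1a1 (ENSMUSG00000041698, chr6:141907282-141946962, minus strand) and Slco1a4 (ENSMUSG00000030237, chr6:141805440-141856199, minus strand) encode OATP1A1 and OATP1A4, rodent carriers that lie near Slco1b2 on chromosome 6. Slco1a1, a male-predominant gene of mouse liver, was at 38.8, 53.3 and 54.9 FPKM in the controls and at 75.4, 28.5 and 37.3 FPKM in the mutants. Both the highest and the lowest liver were mutant, so the genotypes overlapped fully, with a log2 fold change of -0.17 and an interval of -0.99 to 0.65 (limma adjusted p = 0.815). Slco1a4 was at 13.8, 6.21 and 7 FPKM in the controls and at 10.3, 7.95 and 3.28 FPKM in the mutants. Control a was highest and mutant c lowest, the other livers lay between, and the log2 fold change was -0.38 with an interval of -1.48 to 0.71 (limma adjusted p = 0.675). The sign of each depended on 1 liver, as the fold change was 0.13 for Slco1a1 without mutant b and 0.096 for Slco1a4 without mutant c. These 2 genes shared 0.614% and 0.640% of their 100-nt transcript windows with other genes, so reads could be placed almost everywhere along them.

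Slc22a7 (ENSMUSG00000067144, chr17:46432183-46438457, minus strand) encodes OAT2, a sinusoidal carrier of small organic anions. It varied most among control livers within the uptake group, with 59.6, 26.7 and 87.6 FPKM in the controls, a 3.29-fold range. The mutants held 42.1, 31.2 and 22.2 FPKM. Control b lay inside the mutant range and the other control livers above it, and the log2 fold change was -0.75 with an interval of -1.77 to 0.28 (limma adjusted p = 0.408). Without control b the value was -1.23 with a limma adjusted p of 0.0963, and without control c it was -0.37.

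Slc22a30 (ENSMUSG00000052562, chr19:8335371-8405111, minus strand) is a rodent member of the same family. It was at 33.6, 46.8 and 67.4 FPKM in the controls and at 39.1, 30.8 and 39.9 FPKM in the mutants. Control a lay within the mutant range, and the log2 fold change was -0.38 with an interval of -0.98 to 0.22 (limma adjusted p = 0.463). It was -0.13 without control c, -0.26 without mutant b and -0.63 without control a, and -0.14 when limma weighted the livers by their spread, so its size rested on single livers. Of its 100-nt transcript windows, 21.1% were identical in another gene, mainly Slc22a28, which was itself listed at 0.38 to 2.48 FPKM. The paired reads were longer than these windows, so a pair that covers one may still be placed by its other bases. The share of reads that could not be placed by sequence alone, and the effect on the Slc22a30 level, were not tested.

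Abcc2 (ENSMUSG00000025194, chr19:43782192-43840740, plus strand), the canalicular pump gene, was the second most abundant transporter. It was listed at 85.8, 105 and 116 FPKM in the controls and at 89.6, 68.8 and 88.6 FPKM in the mutants. Control a lay below 2 of the mutant livers. The mean level in mutant livers was 80.7% of control, and the log2 fold change was -0.31 with an interval of -0.70 to 0.09 (limma adjusted p = 0.384). Without mutant b it was -0.18 and without control a it was -0.43.

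Abcc3 (ENSMUSG00000020865, chr11:94343295-94392997, minus strand), the MRP3 gene, was at 12.1, 16.6 and 5.77 FPKM in the controls and at 30.5, 19.6 and 11.8 FPKM in the mutants. Mutant a and b lay above all controls, while mutant c lay just below control a. The mean was 11.5 ± 5.42 FPKM in control and 20.6 ± 9.40 FPKM in mutant livers (SD, n = 3 each), with a log2 fold change of 0.86 and an interval of -0.21 to 1.94 (limma adjusted p = 0.374, exact permutation p = 0.3). Leaving out 1 liver moved the value to 0.44 without control c and 0.53 without mutant a, and to 1.19 without control b and 1.21 without mutant c.

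Abcc4 (ENSMUSG00000032849, chr14:118482692-118706219, minus strand), the MRP4 gene, was the least abundant transporter, at 0.56, 1.92 and 0.23 FPKM in the controls and at 2.49, 1.61 and 1.26 FPKM in the mutants. The controls spanned an 8.35-fold range and control b lay inside the mutant range. These levels stand for about 54.5, 179 and 21.9 fragments in control and 124, 80.0 and 62.9 fragments in mutant livers if all came from the longest transcript. The log2 fold change was 1.26 with an interval of -0.29 to 2.80 (limma adjusted p = 0.369, exact permutation p = 0.3). At this low level the value depended on the pseudocount, and it was 0.63 with a pseudocount of 1 and 1.43 with one of 0.01. Without control b it was 1.96 (limma adjusted p = 0.0969), and without control c it was 0.66 (limma adjusted p = 0.684), so the size rested on which control livers entered. The annotation lists 3 other genes within its span, 1 of them on the same strand.

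**Figure D2:**
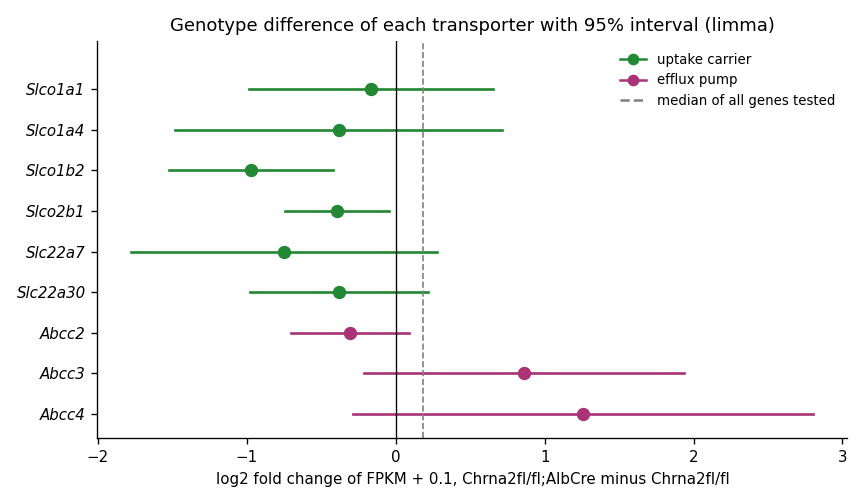
Log2 fold change (x axis, mutant minus control on the log2(FPKM + 0.1) scale) of each transporter, as points with 95% limma intervals, green for uptake and purple for efflux, with the median of all genes tested, 0.19, as a dashed line. The intervals of Slco1b2 (-1.52 to -0.42) and Slco2b1 (-0.75 to -0.04) lay below 0, and those of the other 7 genes crossed it.

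Because uptake and efflux were measured in the same libraries, their balance within a liver does not depend on the scaling of that library. The mean log2 level of the 6 uptake genes minus that of the 3 efflux genes was 2.35, 1.33 and 3.16 in the controls and 1.16, 1.19 and 1.15 in the mutants. The mutant livers lay close to each other and below all controls, but control b was only just above the highest mutant liver. The mean difference between genotypes was -1.11 on the log2 scale, against a pooled SD within genotypes of 0.65, and it was -0.67 without control c. It is given without a test, since the genes were chosen with results of these data known. Leaving out 1 gene at a time kept the difference between -1.57 and -0.78, and the livers did not overlap except without Abcc3, when control b (1.40) fell between the mutant livers.

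In summed FPKM, the uptake genes gave 414, 401 and 604 FPKM in the controls and 373, 259 and 232 FPKM in the mutants, without overlap. The efflux sums were 98.5, 123 and 122 FPKM in control and 123, 90.0 and 102 FPKM in the mutants, with overlap. The ratio of these sums ran from 3.26 to 4.96 in control and from 2.28 to 3.04 in mutant livers, again without overlap. On the log2 scale the ratio of sums differed by -0.59 between genotypes, a smaller difference than the -1.11 of the mean of logs. Slco1b2 supplied the largest part of the uptake sum, 57.0% to 59.1% of it in control and 47.1% to 52.2% in mutant livers. Its share, like its level, was lower in every mutant liver.

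Within efflux, Abcc2 held 85.0% to 95.1% of the sum in control and 73.1% to 87.2% in mutant livers. The basolateral genes Abcc3 and Abcc4 together stood at 0.147, 0.177 and 0.0518 of the Abcc2 level in the controls and at 0.368, 0.308 and 0.147 in the mutants. Mutant a and b were thus the livers richest in Abcc3 plus Abcc4 relative to Abcc2 mRNA, and mutant c was level with control a. Other Abcc genes did not enter this ratio.

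**Figure D3:**
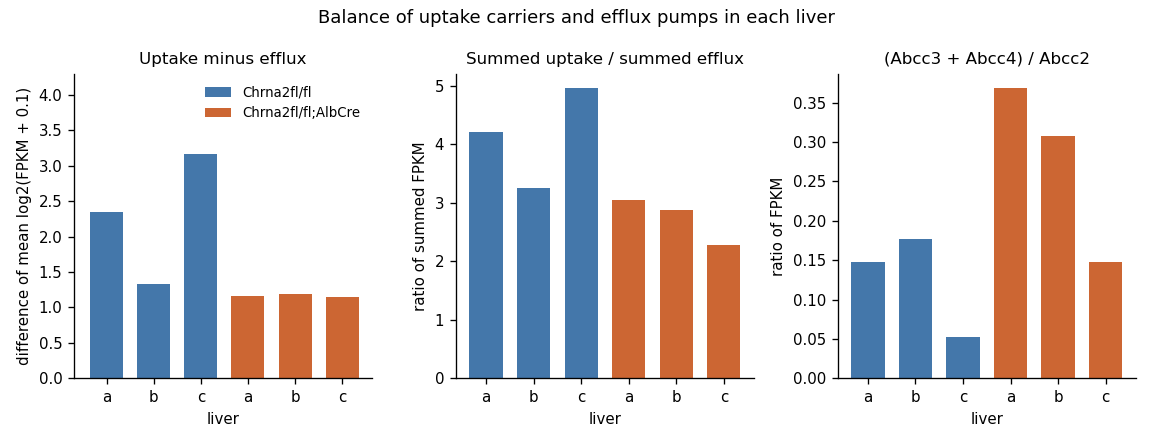
Bars give, for each liver, the mean log2 level of uptake genes minus that of efflux genes (left), the ratio of summed FPKM of uptake to efflux genes (middle) and the ratio of Abcc3 plus Abcc4 to Abcc2 in FPKM (right). The 3 mutant livers sat between 1.15 and 1.19 at the left and between 2.28 and 3.04 in the middle, below all control livers, and overlapped control livers at the right.

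Of the 18 ratios between an uptake and an efflux gene, 17 had a lower mean log2 value in mutant livers. The livers did not overlap for 6, all with Slco1b2, Slco2b1 or Slco1a1 as the uptake gene. The ratios reuse the same 9 genes, so these counts are a description. Lower ratios to Abcc3 and Abcc4 follow from the signs of the fold changes given above, and only the ratios to Abcc2 were free to differ in sign. The largest difference between the genotype means was that of Slco1b2 to Abcc4 (-2.42), whose log2 ratio was 8.72, 6.95 and 10.6 in the controls and 6.16, 6.39 and 6.44 in the mutants. Between the lowest control and the highest mutant liver, Slco1b2 to Abcc3 was further apart, with log2 ratios of 3.84 and 3.21. Slco1b2 was also lower relative to Abcc2, with log2 ratios of 1.18 to 1.62 in control and 0.30 to 0.99 in mutant livers. The exception was Slco1a1 to Abcc2, which was 0.14 higher on average in mutant livers, with mutant a the highest of all. For Slco2b1, Slco1a4 and Slc22a30 the mean ratio to Abcc2 differed by less than 0.1 between genotypes, so that their lower levels were matched by that of Abcc2.

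In order of level per length, the control livers gave Slco1b2, Abcc2, Slc22a7, Slc22a30, Slco1a1, Slco2b1, Abcc3, Slco1a4 and Abcc4, with means from 276 to 0.903 FPKM. The mutant livers gave the same first and last places and exchanged Slco1a1 and Slc22a7, with means from 141 to 1.79 FPKM. In control livers Slco1b2 was clear of Abcc2, Slco1a1 of Slco2b1, Slco2b1 of Abcc3, and Slco1a4 of Abcc4, while the ranges of the other neighbours overlapped. In mutant livers the ranges from Abcc2 down to Abcc3 formed a chain of overlapping neighbours, because Abcc3, at 11.8 to 30.5 FPKM, reached into the range of Slco2b1.

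Other members of the same families were looked at as lists, whose medians stand against 0.19 over all genes tested, a shift that median-ratio scaling of the libraries took to 0.0051. Of 8 tested SLC22 genes counted outside the group, 0 had an unadjusted limma p under 0.05, and their median log2 fold change was -0.05. Of the other Slco genes only Slco2a1, a prostaglandin carrier, and Slco3a1, a broadly made carrier, were high enough to test. Slco3a1 was at 0.46 to 0.68 FPKM in control and 1.20 to 1.61 FPKM in mutant livers (log2 fold change 1.14, limma adjusted p = 0.255) and Slco2a1 had a log2 fold change of 0.43 (limma adjusted p = 0.423). Among 5 other tested Abcc genes the median was 0.55 and 1 passed the unadjusted threshold, Abcc1 (MRP1), at 0.36 to 0.72 FPKM in control and 0.93 to 1.33 FPKM in mutant livers (log2 fold change 1.02, limma adjusted p = 0.286). Abcc6, an efflux pump of hepatocytes, had a log2 fold change of -0.37 (limma adjusted p = 0.533).

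Slc10a1, the NTCP gene, was listed at 375, 181 and 333 FPKM in the controls and 178, 144 and 128 FPKM in the mutants. Control b lay only just above mutant a, and the log2 fold change was -0.93 (limma adjusted p = 0.256). Abcb11, the canalicular bile salt export pump, overlapped between genotypes, at 89.7 to 141 FPKM in control and 90.7 to 105 FPKM in mutant livers (log2 fold change -0.28, limma adjusted p = 0.472). Of 24 tested bile salt, lipid and drug transporters outside the Slco, Slc22 and Abcc families, 3 were higher and 3 lower at an unadjusted limma p under 0.05, 2 lay above and 4 below without overlap, and the median log2 fold change was 0.06. Slc47a1, the MATE1 cation exporter, was at 33.9 to 57.9 FPKM in control and 24.5 to 29.6 FPKM in mutant livers (-0.69, limma adjusted p = 0.255). On the higher side were Slc51b, a subunit of the basolateral bile acid exporter OST, with a log2 fold change of 1.20 (limma adjusted p = 0.291), and Slc10a7, with 0.50 (limma adjusted p = 0.277). Slc51b overlapped between genotypes, at 1.03 to 3.39 FPKM in control and 2.53 to 4.64 FPKM in mutant livers. Slc51a, the gene of the other OST subunit, was too low to test, at 0.05 to 0.22 FPKM in all livers. None of the tested genes named here passed adjustment over all genes.

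PDZ and ERM proteins hold transporters in the membrane. Pdzk1, the anchor of several OATPs, was at 34.2 to 45.4 FPKM in control and 35.0 to 45.4 FPKM in mutant livers (log2 fold change 0.05, limma adjusted p = 0.87). Of the 6 anchor genes only Msn (moesin), which is also abundant in leukocytes and endothelium, had an unadjusted limma p under 0.05, with 4.46 to 12.6 FPKM in control and 16.0 to 17.4 FPKM in mutant livers and a log2 fold change of 1.14 (limma adjusted p = 0.255). Rdx (radixin), the ERM protein that holds MRP2 at the canaliculus, had a log2 fold change of -0.08 (limma adjusted p = 0.795).

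Transcription factors that control transporter genes were counted next. Nr1i3, which encodes the constitutive androstane receptor (CAR), a regulator of conjugation and transport genes, was at 87.4, 45.5 and 78.8 FPKM in the controls and at 28.2, 31.4 and 42.0 FPKM in the mutants. All mutant livers lay below all controls (log2 fold change -1.02, limma adjusted p = 0.255). Ahr, the dioxin receptor gene, was at 3.88 to 8.13 FPKM in control and 3.35 to 3.87 FPKM in mutant livers (-0.69, limma adjusted p = 0.290). Of 19 tested factors, these 2 were lower and 0 higher at an unadjusted p under 0.05, with a median of -0.16. Hnf4a (-0.03), Nr1i2, the pregnane X receptor gene (-0.16), Nr1h4, the bile acid receptor gene (-0.36), and Nfe2l2, the NRF2 gene (0.13), had limma adjusted p-values from 0.547 to 0.91.

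Target genes of these factors were counted beside them. Of 9 tested CAR and PXR targets all had log2 fold changes below 0, with a median of -0.71, and 2 had an unadjusted limma p under 0.05. These were Ces2a, a carboxylesterase, at 40.6 to 56.7 FPKM in control and 25.9 to 29.6 FPKM in mutant livers (-0.74, limma adjusted p = 0.252), and Cyp3a11, a drug-oxidising P450, at 88.8 to 294 FPKM in control and 29.2 to 105 FPKM in mutant livers (-1.54, limma adjusted p = 0.284). Of 11 NRF2 targets 9 lay above 0 with a median of 0.60, and 1, Hmox1 (heme oxygenase), had an unadjusted limma p under 0.05 (0.80, limma adjusted p = 0.268). Sums over the NRF2 list were lowest in control c (840 FPKM) and highest in control b (1782 FPKM). Among controls, Abcc3 and Abcc4 were lowest and highest in the same livers. In the mutants the sums were 1608, 1196 and 1535 FPKM, lowest in mutant b, whereas Abcc3 and Abcc4 were lowest in mutant c. Gstm1 gave much of the sum in control c (542 FPKM) and control b (1300 FPKM). The part of NRF2 in the transporter differences was not tested.

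Markers of other liver cells had higher sums in most mutant livers, and in whole liver fewer hepatocytes and less RNA per hepatocyte cannot be told apart. Stellate cell and myofibroblast markers summed to 81.0, 187 and 31.9 FPKM in the controls and to 241, 273 and 127 FPKM in the mutants, with 10 of 10 log2 fold changes above 0 and 5 at an unadjusted limma p under 0.05. Control c, the lowest in these markers, was also the control with the lowest Abcc3 and Abcc4 and the highest Slco1b2, Slco1a1, Slc22a7, Slc22a30 and Abcc2. Slco1a4 and Slco2b1 were highest in control a. Control b, the highest in these markers among controls, had the highest Abcc3 and Abcc4 of the controls. Among mutants, mutant c had the lowest marker sum and the lowest Abcc3 and Abcc4, but also the lowest Slco1b2, Slco2b1, Slc22a7 and Slco1a4. Mutant b had the highest marker sum, but Abcc3 and Abcc4 were highest in mutant a. Macrophage markers summed to 278 to 476 FPKM in control and 445 to 906 FPKM in mutant livers (11 of 11 above 0, 4 at an unadjusted p under 0.05), and endothelial markers to 42.4 to 69.3 and 67.5 to 108 FPKM (8 of 8 above 0, 3 at an unadjusted p under 0.05). Cholangiocyte markers summed to 87.2 to 224 FPKM in control and 193 to 451 FPKM in mutant livers (5 of 6 above 0, 1 at an unadjusted p under 0.05). All defining markers on these lists were above 0 in all livers. Lymphocyte marker sums were at most 3.08 FPKM in control and 3.19 FPKM in mutant livers. Neutrophil sums were 16.7 to 101 FPKM in control and 17.2 to 49.5 FPKM in mutant livers, and erythroid sums were 613 to 729 FPKM and 637 to 1934 FPKM, so the groups overlapped on each of these lists. Cd8a, Nkg7 and Ly6g, which mark cytotoxic T cells, natural killer cells and neutrophils, were listed at 0 in at least 1 liver. The part of these cells in the transporter differences was not tested.

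Set relative to the mean log2 level of the hepatocyte markers in each liver, an alternative chosen after seeing the data, the log2 fold change was -0.88 for Slco1b2 (limma adjusted p = 0.169), -0.30 for Slco2b1 (limma adjusted p = 0.379) and 0.96 for Abcc3 (limma adjusted p = 0.228). Slco1b2 alone remained without overlap between genotypes. The hepatocyte marker list itself had a median log2 fold change of -0.09.

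Hepatocyte genes with a known place along the portal to central axis of the lobule also lay mostly below 0. Of 11 tested pericentral genes, 7 had an unadjusted limma p under 0.05 and lay below all controls, with a median log2 fold change of -0.87. Cyp2e1, a P450 that activates CCl4, was at 848 to 3364 FPKM in control and 292 to 570 FPKM in mutant livers (-2.19, limma adjusted p = 0.245), and Rgn (regucalcin) had a log2 fold change of -0.87 (limma adjusted p = 0.243), neither past adjustment. Of 10 periportal genes, 2 had an unadjusted limma p under 0.05, both lower, 4 lay below all controls, and the median was -0.47. Among male-predominant genes 12 were tested, 2 were lower at an unadjusted limma p under 0.05 and the median was -0.58, and the 7 tested female-predominant genes had a median of -0.48 with members on both sides of 0. Of these 7, 3 lay above 0, and the 1 with an unadjusted limma p under 0.05 was Prom1, which also marks bile duct cells, at 0.12 to 0.88 FPKM in control and 1.08 to 1.76 FPKM in mutant livers (log2 fold change 1.78, limma adjusted p = 0.277). The part of zonation and of sex-dependent expression in the transporter differences was not tested.

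**Figure D4:**
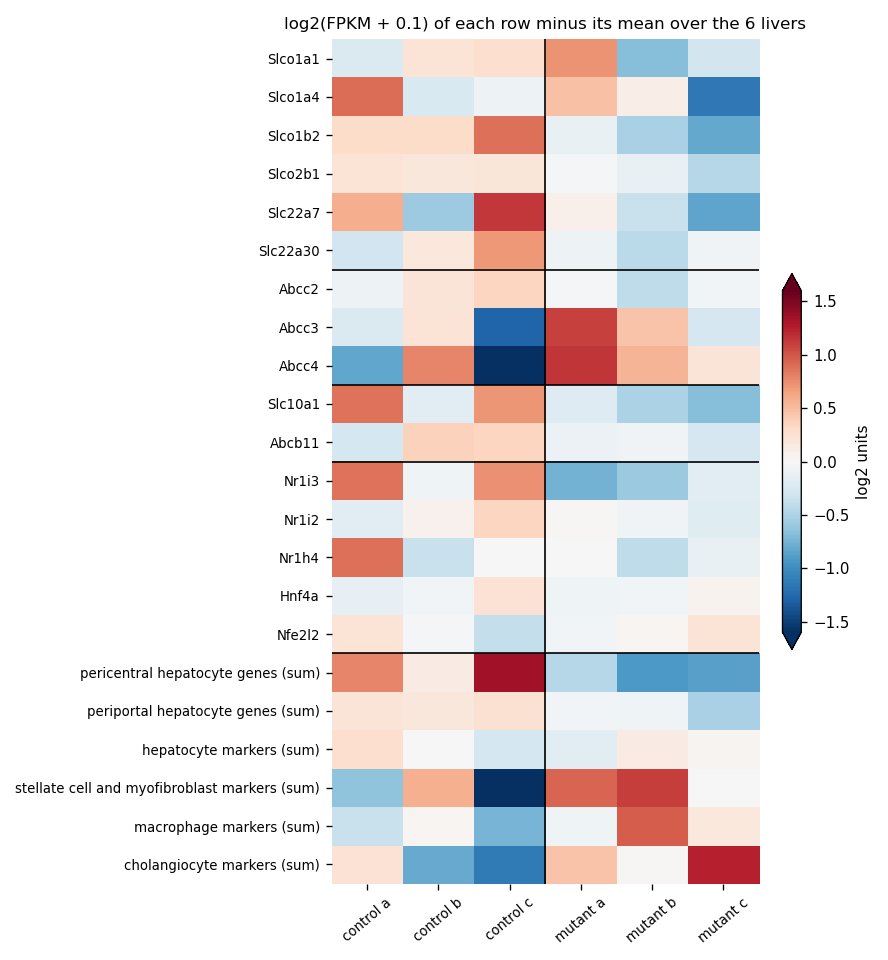
Each cell gives log2(FPKM + 0.1) of a gene, or of the summed FPKM of a marker list, minus its mean over the 6 livers, for 3 control and 3 mutant livers (columns). Lines part uptake genes, efflux genes, other transporters, transcription factors and marker lists, and control c stands out with high Slco1b2, Slc22a7 and pericentral genes and low Abcc3, Abcc4 and stellate markers (31.9 FPKM).

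The profiles of the 9 transporters over the 6 livers were compared by the root mean square difference of centred log2 levels, as a description without a test. The closest pair was Slc22a30 and Abcc2 (0.17), followed by Slco2b1 and Abcc2 (0.25). Among other genes whose mean reached 5 FPKM, Slco1b2 was closest to Chpt1, a phosphatidylcholine synthesis enzyme (0.090), and Fn3k, a kinase that removes sugar from proteins (0.12). Slco2b1 was closest to Cyp2j6, a P450 (0.043), and Magix (0.053), and Abcc2 to Umad1 (0.041) and Cpt2, a mitochondrial fatty acid oxidation enzyme (0.050). Abcc3 was closest to Gm10557 (0.099) and Fkbp7 (0.15), and Abcc4 to Pmm1, a mannose metabolism enzyme (0.15), and Plac9b (0.24). The genes nearest to the others were Zfp445 and G0s2 for Slco1a1, Spc24 and Immp2l for Slco1a4, Dedd2 and Miip for Slc22a7, and 2310001H17Rik and Fam107b for Slc22a30, at differences from 0.10 to 0.28.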

How the data were processed

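Liver RNA of 3 control and 3 mutant mice was compared after HFD with CCl4. The authors made strand-specific libraries from poly(A) RNA, mapped paired reads to GRCm38 with STAR 2.7.8a and deposited gene FPKM from RSEM 1.3.3. The submitters' processing notes also list cutadapt 2.3, FastQC 0.11.8 and MultiQC 1.7. RSEM divides reads shared by similar transcripts by estimate, and stranded reads keep antisense genes apart.

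Values were tested as log2(FPKM + 0.1) with limma 3.58.1 in R 4.3.3 (eBayes with a trend) over the 13943 genes whose mean reached 0.5 FPKM, and p-values were adjusted by Benjamini-Hochberg with a threshold of 0.05. The log2 scale with a pseudocount understates changes of low genes. All 9 transporters passed the minimum. Exact permutation tests were two-sided over the 6 livers. The test was checked on simulated data with known changes. Depth was estimated from genes of 600 to 1400 nt with few fragments, of whose values 86.2% to 87.6% were whole fragments within 0.15, so it is approximate.

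The members and the 26 gene lists were chosen with earlier results of these data known. Besides the 9 transporters, Chrna2 and 8 fixed transporters and regulators, up to 4 genes with the smallest limma p per list and the 2 genes of most similar profile were named. Some fixed genes are not reported here and were left out of the counts of their lists. Gene positions came from GENCODE vM21 and promoters from RefSeq. The alternatives were other pseudocounts, minimums, scalings, limma settings, a replicate block and leaving out each liver.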

Additional observations from a re-analysis of the deposited data

How the results depend on the processing

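The signs of Slco1b2, Slco2b1, Slc22a7, Slc22a30, Abcc2, Abcc3 and Abcc4 were the same under all alternatives run, except that Abcc4 was not tested at a minimum of 5 FPKM. The uptake minus efflux difference kept its sign with medians, with the ratio of sums and without any 1 gene or liver. It was not computed with other pseudocounts or scalings. Median-ratio scaling moved the median log2 fold change of all genes from 0.19 to 0.0051 and quantile normalization to -0.0043, and the higher share of genes with an unadjusted p under 0.05 from 81.4% to 46.0% and 51.0%. Under these scalings Slco1b2 was at -1.16 and -1.0, Abcc2 at -0.49 and -0.37 (limma adjusted p = 0.314 and 0.371) and Abcc3 at 0.68 and 0.69.

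With 0 genes passing adjustment in limma as fitted, higher and lower counts were 1 and 2 with a pseudocount of 1, 1 and 1 without the filter, 1 and 6 without the trend, 1 and 3 with array weights, 1 and 4 in the unmoderated test, 1 and 1 relative to hepatocyte markers, and 1 lower at a minimum of 5 FPKM. Unadjusted, 642 genes were lower without the filter and 1182 higher at a minimum of 5 FPKM, 880 were higher and 1031 lower with median-ratio scaling, 955 and 918 with quantile normalization, 3003 and 655 with array weights, and 194 lower relative to hepatocyte markers. Of the transporters, 1 was higher unadjusted with array weights and relative to hepatocyte markers. Without the trend and relative to hepatocyte markers, 1 was lower unadjusted, and in the latter setting 1 lay below all controls. With median-ratio scaling and with quantile normalization, 3 were lower unadjusted, with Abcc2 joining Slco1b2 and Slco2b1, and 3 lay below all controls. Array weights also gave 3 lower, with Slc22a7 in place of Abcc2.

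Without 1 liver at a time, 0 to 34 genes were higher (34 without control b) and 0 to 6 lower (6 without mutant a) after adjustment, and 1047 to 2891 were higher unadjusted (1047 without control c, 2891 without control b). Of the transporters 0 to 2 were higher and 1 to 3 lower unadjusted, 0 to 1 lay above all controls (Abcc3 without mutant c or Abcc4 without control b) and 2 to 4 below (4 without control a). Slco1a1 ranged from -0.57 to 0.13 and Slco1a4 from -0.71 to 0.096, and the cause was not tested. The uptake minus efflux difference ranged from -1.59 without control b to -0.67 without control c.

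Same-letter deviations of control and mutant livers correlated at -0.02, 0.06 and 0.02, and different-letter deviations at -0.05 to 0.04. With so few livers per genotype, these values cannot decide whether shared letters mark paired livers. With the letter as a replicate block, 1 transporter (Abcc3) was higher and 1 (Slco1b2) lower at an unadjusted p under 0.05.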

Other observations

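The acute phase list, not described above, had a median log2 fold change of 0.71, and 4 of 10 tested genes were higher at an unadjusted limma p under 0.05. Lcn2 (lipocalin 2) was at 277, 400 and 84.7 FPKM in the controls and 710, 514 and 680 FPKM in the mutants (log2 fold change 1.57, limma adjusted p = 0.270), and Orm1, an acute phase glycoprotein, was also higher in each mutant liver (0.78, limma adjusted p = 0.255). Neither passed adjustment over all genes. Saa1, added after its values were seen, ran from 305 to 1941 FPKM in control and from 401 to 2161 FPKM in mutant livers and overlapped between genotypes. Control c, in which Slco1b2 and Slc22a7 were highest, had the lowest Lcn2, but control a had the lowest Saa1.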
